A study of Mus musculus with 14 samples.

Results

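The genes described here encode the proteins of the mitochondrial ribosome. They were chosen by symbol, as every gene of the count table named Mrps or Mrpl followed by a number and at most 1 letter, which gave 77 of 27099 genes, 29 with an Mrps and 48 with an Mrpl symbol. Placed by their position in the ribosome, 26 belong to the small subunit and 50 to the large subunit, because Mrps18a and Mrps30 encode large subunit proteins despite their names. The remaining gene, Mrps36, encodes a component of the oxoglutarate dehydrogenase complex and is counted among the 77 but in neither subunit. By textbook nomenclature 47 of the proteins have a counterpart in the bacterial ribosome and 29 are found only in mitochondria.

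RNA was sequenced after Smart-seq2 amplification from Nes-GFP+ bone marrow stromal cells (BMSCs), in which regulatory elements of nestin drive GFP, sorted as CD45-, CD31- and DAPI- cells. The study's methods also name a Ter119- gate, which removes erythroid cells and which the labels do not list. The groups were AML Nes-GFP high (n = 2), AML Nes-GFP low (n = 4), normal Nes-GFP high (n = 2) and normal Nes-GFP low (n = 6). AML mice were primary iMLL-AF9 mice, which carry rtTA in the ROSA26 locus and the human MLL-AF9 fusion under a tetracycline-response element and were given doxycycline until leukemia was evident. Normal mice received sucrose vehicle according to the study's methods, so AML and doxycycline cannot be told apart. All were adult mice of either sex. Some libraries came from 1 mouse and others from a pool of 2, without a statement of which, and whether the replicates of a group are all separate mice is not stated either, so that p-values measure the spread between these libraries only.

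The 14 libraries held 5615941 to 11436652 counts, with transcripts of 14842 genes in normal Nes-GFP high replicate 1 and of 18177 to 20197 genes in the others. Nes was at 2.27 to 36.0 CPM (counts scaled to the size of the library, here by the TMM method) in the 4 Nes-GFP high libraries and between 0 and 5.69 CPM in the 10 Nes-GFP low ones, without overlap within AML or within normal mice. The stromal genes Cxcl12 and Lepr were detected in every library. Ptprc, which encodes CD45, was at 3.94 to 482 CPM although CD45+ cells were gated out. The summed level of 8 erythroid marker genes, 4 of them hemoglobin genes, was 8.98 to 3056 CPM, and 5 of the 8 had a count in every library. The summed level of 9 myeloid marker genes ranged from 689 to 101578 CPM and was above that of 8 stromal markers (885 to 82905 CPM) in 5 libraries, of which 1 was AML Nes-GFP high, 2 were AML Nes-GFP low and 2 were normal Nes-GFP low. These libraries go against the stromal label, and results are given without them where they differ. In bulk samples, fewer cells of a type and less RNA per cell cannot be told apart.

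Mitochondria carry their own genome, which encodes a handful of proteins of the respiratory chain and ATP synthase together with the 12S and 16S ribosomal RNAs. A dedicated ribosome translates these proteins. Its RNAs are made in the organelle, whereas all of its proteins are encoded in the nucleus, made in the cytosol and imported. The small subunit binds and decodes the mRNA, and the large subunit joins amino acids at the peptidyl transferase center. The mammalian particle has lost much of the RNA of its bacterial ancestor and has gained many proteins that bacteria lack, and loss of single members impairs oxidative phosphorylation.

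The member genes lie on 17 chromosomes, with at most 10 on any 1 of them. Many start near another gene. On the opposite strand, 33 of 77 members (42.9%) had the start of a protein-coding gene within 1000 bases, upstream or downstream. This held for 10.9% of 21924 protein-coding genes in GENCODE M21. Mrps11 and Mrpl46, a small and a large subunit gene on chromosome 7, form such a pair with each other, with starts 412 bases apart and overlapping 5′ ends.

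Promoter windows of RefSeq (GRCm38.p6, 250 bases before and 50 after the start) were present for 68 members and searched on both strands for motifs of 3 factors linked to nuclear genes of mitochondrial proteins. The NRF1 motif GCGCANGCG occurred in 16 members (23.5%) and in 9.63% of 17492 protein-coding genes. The ETS family motif CCGGAAGT, which GABP binds, occurred in 12 members (17.6%) and in 5.69% of protein-coding genes. The YY1 motif AAGATGGCG occurred in 8 members (11.8%) and in 2.14% of protein-coding genes. Over all 27025 genes of the table, the shares were 7.03%, 4.31% and 1.64%. At least 1 of these letter strings stood in 34 of the 68 members and in 15.9% of protein-coding genes. These matches describe the letters of the windows, not bound sites. Among the 7 members that DESeq2 called in Nes-GFP high BMSCs of AML against normal mice (described further on), 0 held the NRF1 motif, 1 (Mrps27) the YY1 motif and 4 the ETS motif. For the ETS motif, 30 bases around it are shown, 5′ to 3′ on the strand of the gene, with the motif (in Mrps27 its reverse complement) in capitals. Exons are those of GENCODE M21, whose starts can differ from the RefSeq starts that set the windows. From the RefSeq start, the motif begins at -11 in Mrps22, where the bases shown run past that start, and at -19 in Mrpl3.
Mrps22, chr9:98601672-98601701, minus strand, upstream of the annotated exons: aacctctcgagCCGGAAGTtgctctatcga
Mrps27, chr13:99344726-99344755, plus strand, upstream of the annotated exons: gtggtaggaccACTTCCGGcggaggcgggc
Mrpl3, chr9:105053238-105053267, plus strand, with the motif in an exon of Mrpl3: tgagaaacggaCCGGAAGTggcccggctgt
Mrpl27, chr11:94653725-94653754, plus strand, within an exon of Eme1 on the minus strand and upstream of the exons of Mrpl27: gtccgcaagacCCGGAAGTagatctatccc
The surrounding bases differ among the 4 genes. In Nes-GFP high BMSCs, Mrps22, Mrpl3 and Mrpl27 had a higher and Mrps27 a lower fitted level in AML. The value of Mrps27 rests largely on normal Nes-GFP high replicate 1. Whether the motif goes with a direction was not tested.

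Transcripts of the mitochondrial ribosome were present in every library at a moderate level. Over the 14 libraries the mean level of a member had a median of 46.4 CPM, ranging from 0.269 CPM for Mrpl53 to 115 CPM for Mrpl4, and 65 of the 77 members were at 1 CPM or more in all libraries. Per kilobase of exon, the highest small subunit genes were Mrps21 at 89.2, Mrps6 at 70.4 and Mrps28 at 70.3 CPM per kb. In the large subunit, Mrpl54, Mrpl52 and Mrpl28 led with 67.4, 67.0 and 63.7 CPM per kb. The small and large subunit genes had similar medians, 15.3 and 16.5 CPM per kb, as did proteins with a bacterial counterpart (16.1 CPM per kb) and those found only in mitochondria (16.6 CPM per kb).

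The members most abundant per length still varied among libraries of a group. Mrps6, whose exons share 19.9% of their bases with other genes including Slc5a3, was at 142 and 118 CPM in AML Nes-GFP high and at 102 and 211 CPM in normal Nes-GFP high libraries. In Nes-GFP low libraries it spanned 18.4 to 121 CPM in AML (median 72.2) and 39.7 to 291 CPM in normal mice (median 63.5 CPM). The groups overlapped in both populations for AML against normal. Mrps21, a small subunit gene with a bacterial counterpart, was at 18.9 and 102 CPM in AML Nes-GFP high and at 63.9 and 143 CPM in normal Nes-GFP high libraries, also with overlap.

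The products of the Mrps18 genes are paralogs that descend from a single bacterial protein. Mrps18c had the highest level per length of the 3, at 25.2 CPM per kb, against 11.6 for the large subunit gene Mrps18a and 10.2 for Mrps18b. Mrps30, which encodes a large subunit protein, was among the lowest members at 4.15 CPM per kb, and was at 0.989 and 16.6 CPM in AML Nes-GFP high against 30.1 and 78.4 CPM in normal Nes-GFP high libraries. Mrps36 reached 32.1 CPM per kb.

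Among the members, 5 had no count in at least 1 library. Mrpl53 had 0 to 10 counts in every library, and 88.0% of its exon bases are shared with Ccdc142os or Gm42688, so that its reads could be discarded or split in counting, and it was the only member not kept for testing. Mrpl46 had no count in AML Nes-GFP high replicate 1 and normal Nes-GFP high replicate 1, and a single count in AML Nes-GFP low replicate 4, against 42 and 8 counts in the other Nes-GFP high libraries and 70 to 443 counts in the remaining Nes-GFP low libraries. Mrpl47 had no count in normal Nes-GFP high replicate 1 but 118 counts in replicate 2, and 4 and 573 counts in the AML Nes-GFP high libraries. For Mrpl46 and Mrpl47 a library without a count thus stood beside a replicate with counts.

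The number of members under 1 CPM was 7 and 5 in AML Nes-GFP high, 6 and 2 in normal Nes-GFP high, and 1 or 2 in each Nes-GFP low library. As a share this was 2.60% to 9.09% of members in Nes-GFP high and 1.30% to 2.60% in Nes-GFP low libraries. Over all genes tested the Nes-GFP high libraries also had the larger shares, with 32.5% to 40.4% under 1 CPM in Nes-GFP high and 18.2% to 30.6% in Nes-GFP low libraries. The part of this wider difference in the results on single members was not tested.

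**Figure D1:**
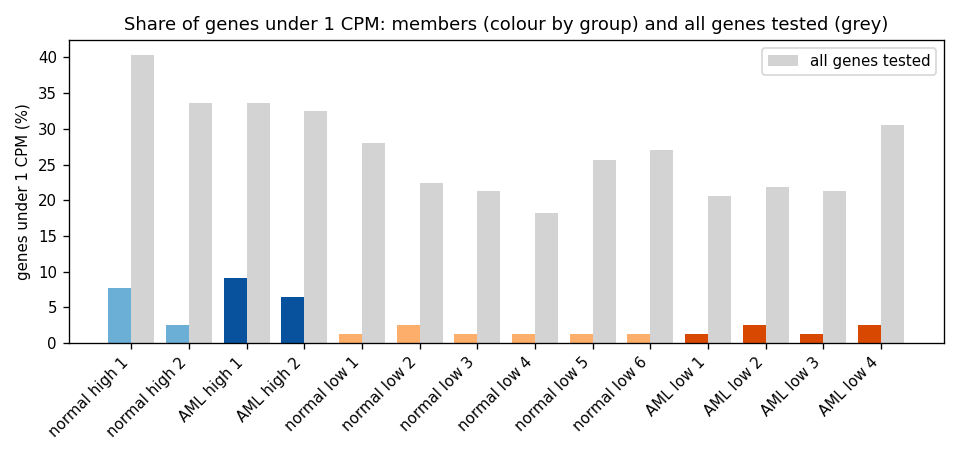
Share of genes under 1 CPM (y axis, percent) in each library (x axis), for the 77 members (coloured by group) and for all genes tested (grey). Members lie between 1.30% and 9.09%, with the highest shares in Nes-GFP high libraries, and all genes tested lie between 18.2% and 40.4%.

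The total level of the mitochondrial ribosomal protein genes was similar in the 4 Nes-GFP high libraries and spread more widely in the Nes-GFP low libraries. Summed over all members it was 4200 and 3738 CPM in AML Nes-GFP high libraries, and in normal Nes-GFP high libraries it was 3938 and 3922 CPM. The AML Nes-GFP low libraries held 3176, 2377, 2907 and 5771 CPM (3558 ± 1512 CPM, SD, n = 4). The normal Nes-GFP low libraries held 3097 to 4952 CPM with a median of 3295 CPM (3775 ± 893 CPM, SD, n = 6). The ranges of AML and normal overlapped in both populations. As a share of all counts, the members made up 0.264% to 0.633% of a library.

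Both subunits followed the same pattern. The small subunit sum was 1340 and 1406 CPM in AML Nes-GFP high, 1227 and 1377 CPM in normal Nes-GFP high, 698 to 2160 CPM in AML Nes-GFP low and 886 to 1659 CPM in normal Nes-GFP low libraries. The large subunit sum was 2849 and 2266 CPM in AML Nes-GFP high, 2696 and 2516 CPM in normal Nes-GFP high, 1647 to 3512 CPM in AML Nes-GFP low and 1931 to 3335 CPM in normal Nes-GFP low libraries. The large subunit sum exceeded the small subunit sum in every library, by a ratio of 1.41 to 2.48. The sums run over 50 large and 26 small subunit genes with similar levels per gene (median of the mean levels 47.4 and 44.4 CPM). A larger sum thus goes with the larger number of genes and is no excess per gene.

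**Figure D2:**
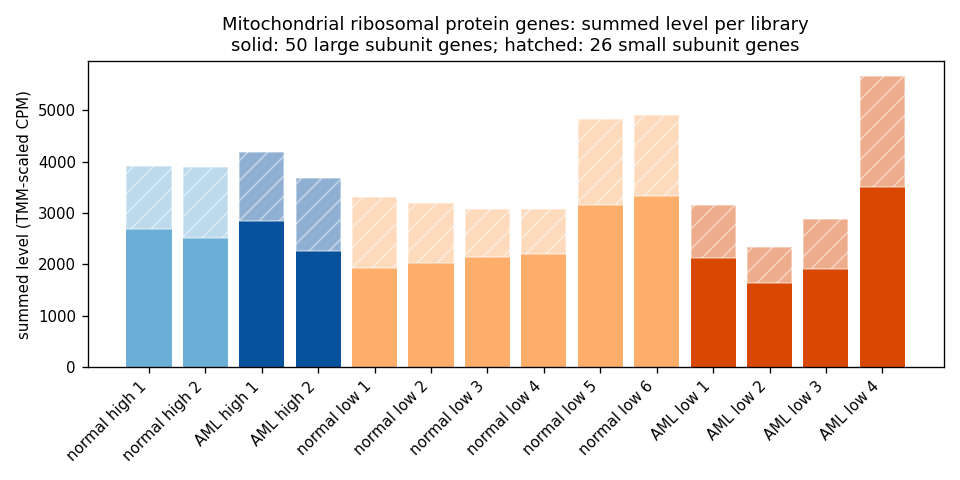
Summed level (y axis, TMM-scaled CPM) of the 50 large subunit genes (solid) and the 26 small subunit genes (hatched, stacked) in each library (x axis), coloured by group. AML low 4, normal low 5 and normal low 6 hold the highest totals, and the Nes-GFP high libraries of AML and normal mice lie at similar heights.

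AML Nes-GFP low replicate 4 and normal Nes-GFP low replicates 5 and 6 stood above the other Nes-GFP low libraries. The same 3 libraries had the highest sums of 80 cytosolic ribosomal protein genes among Nes-GFP low libraries, at 55214, 31390 and 34377 CPM against 13609 to 26241 CPM in the others. The mitochondrial ribosomal RNAs mt-Rnr1 and mt-Rnr2 together were at 15596, 9593 and 11381 CPM in these libraries and at 5276 to 9260 CPM in the other Nes-GFP low libraries. Among Nes-GFP low libraries these 3 also had the highest sums of erythroid markers, at 2290, 2942 and 3056 CPM. The other Nes-GFP low libraries held 11.9 to 2150 CPM. The 2150 CPM belonged to normal Nes-GFP low replicate 4, where the members summed to only 3119 CPM. The part of the erythroid markers in the higher member sums was not tested. The 3 libraries belong to both AML and normal mice. AML Nes-GFP low replicate 4 also had the lowest total count of all libraries.

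Single members often differed more than 2-fold between replicates. Between the 2 normal Nes-GFP high libraries, the median absolute difference of a tested member was 0.94 on the scale of log2(CPM + 0.5), and 36 of 76 members (47.4%) differed more than 2-fold. Between the 2 AML Nes-GFP high libraries the median difference was 0.93, with 35 members (46.1%) past 2-fold. All genes tested were more variable in these pairs, with 54.5% and 52.2% past 2-fold. In Nes-GFP low libraries the median difference of members between replicates ranged from 0.43 to 0.94 over 15 pairs in normal mice and from 0.49 to 1.68 over 6 pairs in AML. The 3 AML pairs that contained replicate 4 had the largest values, 1.26 to 1.68.

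The coefficient of variation was computed for the Nes-GFP low groups. Its median over members was 59.8% in AML and 42.7% in normal mice, close to that of cytosolic ribosomal protein genes (61.9% and 41.0%) and below that of all genes tested (78.8% and 74.0%). The heatmap of all members displays the members that were nearly absent from single libraries.

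**Figure D3:**
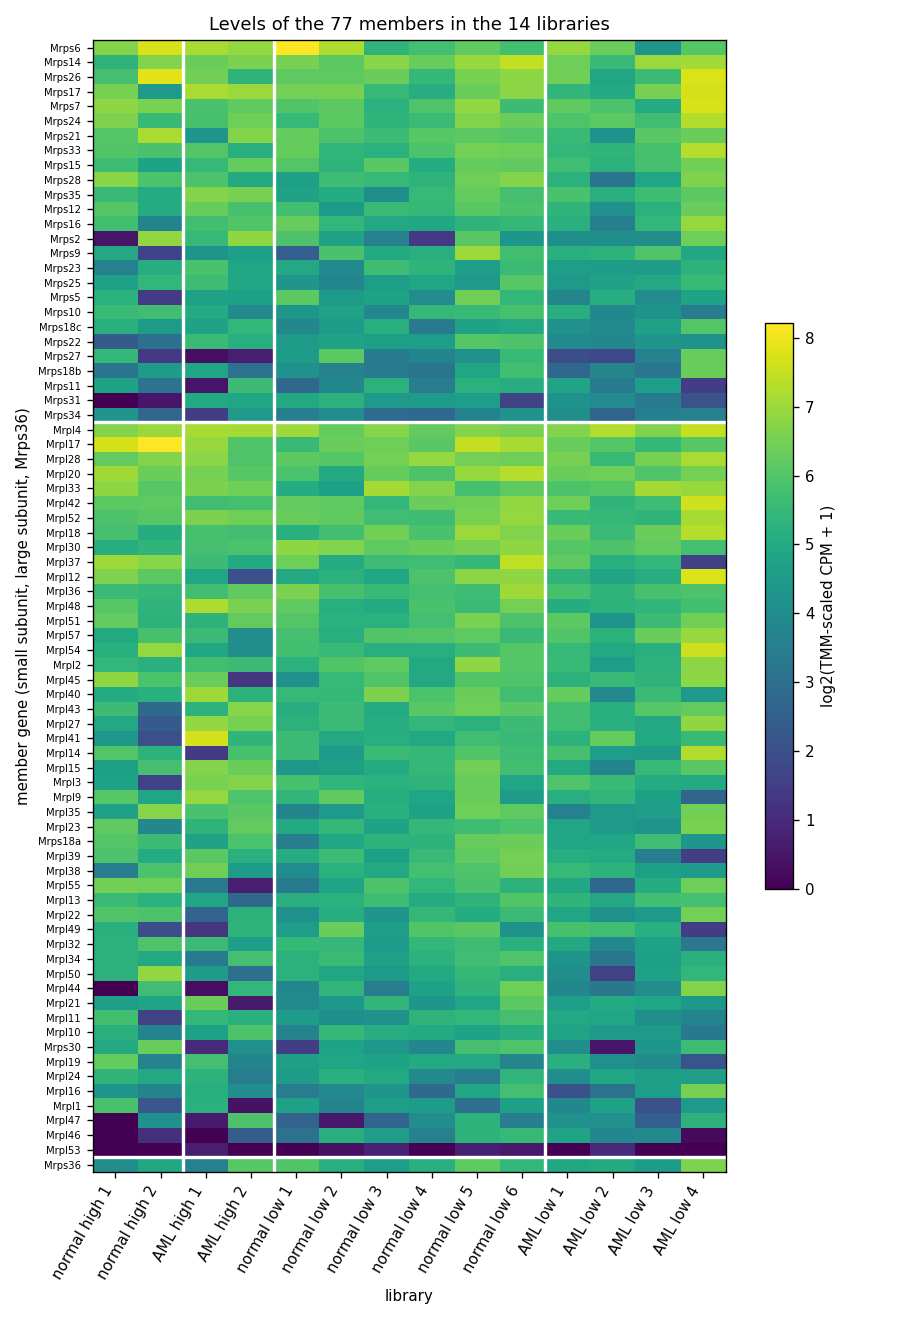
Level of each of the 77 members (rows, log2 of CPM + 1 as colour) in the 14 libraries (columns, grouped by normal or AML and Nes-GFP high or low). Small subunit genes stand on top and large subunit genes below, each ordered by mean level, with Mrps36 last. Dark cells in otherwise bright rows mark genes nearly absent from 1 library, for example Mrpl46 at 0 CPM in AML high 1 and normal high 1.

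To learn whether BMSCs of leukemic mice differed in these genes, AML and normal mice were compared within each population. In Nes-GFP high BMSCs, members lay on both sides of 0: 42 of the 76 tested members had a higher and 34 a lower fitted level in AML, with a median log2 fold change of 0.22 against 0.08 over all genes tested. This median was -0.02 without normal Nes-GFP high replicate 2 and 0.55 without normal Nes-GFP high replicate 1. Mrps31, Mrpl41, Mrps22, Mrpl3 and Mrpl27 had the smallest unadjusted p among members higher in AML, and Mrpl55 and Mrps27 among those lower. None passed edgeR's quasi-likelihood test at an adjusted p under 0.05, nor did any other gene (0%). At an unadjusted p under 0.05, edgeR had 5 members higher (6.58% of members, against 7.62% of all 18152 genes tested) and 2 lower (2.63%, against 4.54%). DESeq2 called 5 members higher (6.58%, against 6.24% of the 15167 genes with an adjusted p) and 2 lower (2.63%, against 4.27%), and limma voom called none. The share of members called was therefore near that of all genes.

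Counting only whether the 2 AML libraries lay entirely above or below the 2 normal libraries, 15 members (19.7%) were higher, against 16% of all genes, and 13 (17.1%) were lower, against 11.5%. The large subunit gave 11 and 10 of these and the small subunit 4 and 3. The median log2 fold change was 0.29 for the 26 small subunit genes and 0.01 for the 49 tested large subunit genes. Cytosolic ribosomal protein genes had a median of 0.21. The summed erythroid markers reached 46.1 and 8.98 CPM in the AML libraries, against 2773 and 130 CPM in the normal ones, lower in AML without overlap, and their part in this comparison was not tested.

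**Figure D4:**
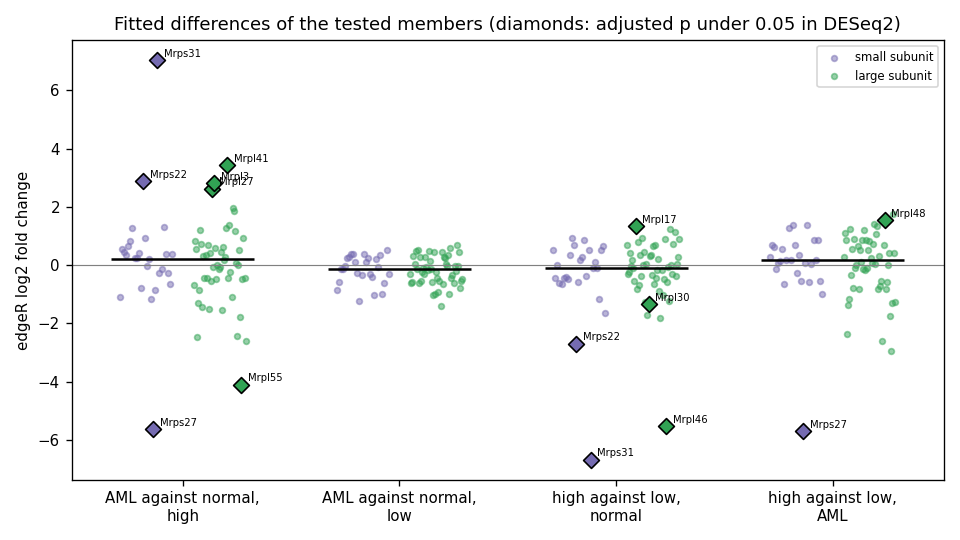
Fitted log2 fold change (y axis, edgeR) of each tested member of the small and large subunit in 4 comparisons of groups (x axis). Lines mark the median over members, which lies between -0.14 and 0.22, and diamonds mark members with an adjusted p under 0.05 in DESeq2, none of which passed in edgeR.

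Mrps31 encodes a small subunit protein found only in mitochondria (chr8:22411361-22429665, plus strand, GRCm38, as for all gene positions given here). It had 247 and 264 counts (30.5 and 27.6 CPM) in AML Nes-GFP high libraries and 0 and 3 counts (0 and 0.425 CPM) in normal Nes-GFP high libraries. The AML libraries were far above the normal ones, which barely held the transcript. The rates differed 145-fold, with an exact 95% counting interval of 49.2 to 704 that does not cover the variation between mice. The fitted log2 fold change was 7.03 (SE 1.71, adjusted p = 0.189 in edgeR and 4.21e-05 in DESeq2), and it was 6.16 without normal Nes-GFP high replicate 1. Without normal Nes-GFP high replicate 2 the remaining normal library held no count, so that a fitted value has no meaning there and none is given.

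Mrps22 encodes another mitochondria-specific small subunit protein, loss of which causes respiratory chain deficiency in patients (chr9:98588730-98601660, minus strand). It stood at 47.1 and 35.3 CPM in AML and at 4.03 and 7.22 CPM in normal Nes-GFP high libraries. The 2 groups were well apart and each pair of replicates was close. The log2 fold change was 2.87 (SE 0.87, adjusted p = 0.279 in edgeR and 0.00105 in DESeq2), and it stayed between 2.62 and 3.30 when single libraries were left out.

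Mrpl3 and Mrpl27 encode large subunit proteins with bacterial counterparts near the peptidyl transferase center. Mrpl3 (chr9:105053239-105079888, plus strand) was at 93.0 and 103 CPM in AML and at 26.1 and 1.98 CPM in normal Nes-GFP high libraries. Mrpl27 (chr11:94653767-94660089, plus strand) was at 118 and 91.6 CPM in AML and at 30.1 and 3.96 CPM in normal libraries. For both genes the AML replicates were alike and the 2 normal replicates differed severalfold, with replicate 2 the lower.

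The log2 fold change of Mrpl3 was 2.80 (SE 0.98, adjusted p = 0.321 in edgeR and 0.0271 in DESeq2). That of Mrpl27 was 2.62 (SE 0.92, adjusted p = 0.321 in edgeR and 0.0230 in DESeq2). Without normal Nes-GFP high replicate 2 these values were 1.86 and 1.75, while leaving out normal Nes-GFP high replicate 1 gave 5.73 and 4.82. Both normal libraries still lay below both AML libraries.

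Mrpl41 encodes a large subunit protein found only in mitochondria (chr2:24974117-24975098, minus strand). It was at 204 and 40.1 CPM in AML and at 19.8 and 2.97 CPM in normal Nes-GFP high libraries, so that replicates of both groups differed severalfold. Its log2 fold change of 3.42 (SE 0.999, adjusted p = 0.279 in edgeR and 0.00440 in DESeq2) became 5.44 without normal Nes-GFP high replicate 1 and 1.78 without AML Nes-GFP high replicate 1. The latter library is among the 5 with more myeloid than stromal marker level. Without these 5 libraries the value was 1.81, with replicate 2 the only AML Nes-GFP high library left.

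Mrpl55 and Mrps27 went the other way. Mrpl55, a large subunit gene (chr11:59202486-59206134, plus strand), was at 9.27 and 0.627 CPM in AML and at 86.5 and 84.0 CPM in normal Nes-GFP high libraries, with a log2 fold change of -4.10 (SE 1.39, adjusted p = 0.310 in edgeR and 0.00647 in DESeq2). The 2 normal libraries were nearly equal and both AML libraries were far lower. The value was -7.08 without AML Nes-GFP high replicate 1, which leaves an AML library with 6 counts. It was -3.24 without AML Nes-GFP high replicate 2.

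Mrps27 encodes a small subunit protein of the pentatricopeptide repeat type (chr13:99344786-99415562, plus strand). It had 2 and 6 counts (0.247 and 0.627 CPM) in AML and 344 and 11 counts (43.3 and 1.56 CPM) in normal Nes-GFP high libraries. Of these 4 libraries, only normal replicate 1 held the transcript at more than a trace. The log2 fold change of -5.63 (SE 2.07, adjusted p = 0.337 in edgeR and 0.0103 in DESeq2) became -1.67 without that library. The opposite-strand gene 6430562O15Rik overlaps 24.2% of the exon bases of Mrps27, and no strand setting of the counting is given in the sources used here.

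**Figure D5:**
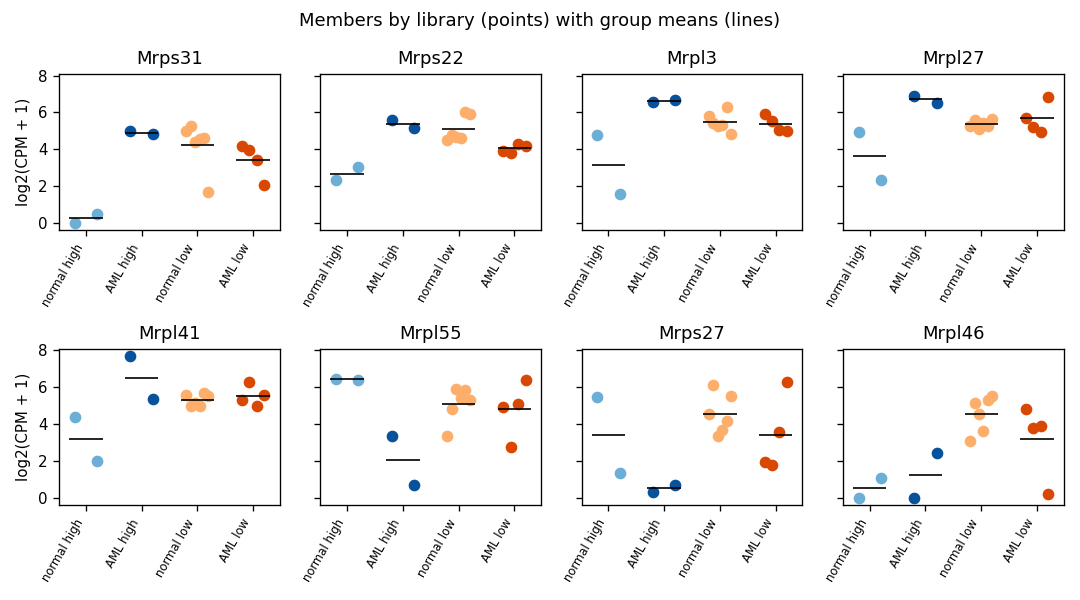
Level (y axis, log2 of CPM + 1) of 8 named members in each library (points) of the 4 groups (x axis), with the mean of these log2 values (lines). Mrps31 and Mrps22 are low in both normal high libraries. In AML high they lie above all AML low libraries and within the range of the normal low libraries. Mrps27 and Mrpl46 are low in most Nes-GFP high libraries with wide spread elsewhere.

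In Nes-GFP low BMSCs, where more libraries were available, no member passed a test between AML and normal mice. Of the 76 tested members 29 had a higher and 47 a lower fitted level in AML, with a median log2 fold change of -0.14 against 0.00 over all genes tested. Fitted values of members ran from -1.41 to 0.69. No gene passed the adjusted threshold in edgeR (0%), and DESeq2 called 0 members, where 0.208% of genes were called higher and 0.473% lower. By unadjusted p under 0.05 in edgeR, 0 members were higher, against 2.64% of genes, and 1 was lower, against 2.9%. Non-overlapping groups gave 0 members higher, against 0.441% of genes, and 1 lower, against 0.667%.

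That member was Mrps22, again with a mitochondria-specific product. It was at 13.9, 12.9, 18.6 and 17.4 CPM in AML Nes-GFP low and at 22.0 to 64.8 CPM (median 25.2) in normal Nes-GFP low libraries, each AML value below each normal value. Its log2 fold change was -1.22 (SE 0.55, adjusted p = 0.859 in edgeR and 0.205 in DESeq2).

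The next members by p were all lower in AML, with overlapping groups. Mrpl32, whose large subunit product is matured by the m-AAA protease, had a log2 fold change of -1.02 (SE 0.52). Mrpl39, Mrpl34 and Mrpl30 had -1.41 (SE 0.73), -0.997 (SE 0.59) and -0.59 (SE 0.34). The adjusted p of these 4 genes was 0.9999 in edgeR and 0.394 to 0.816 in DESeq2. Mrpl39 was lowest in AML Nes-GFP low replicate 4, at 1.79 CPM against 10.6 to 33.8 CPM in the other AML Nes-GFP low libraries.

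The median over members in this comparison depended on that library too: it was -0.44 without AML Nes-GFP low replicate 4, 0.05 without AML Nes-GFP low replicate 2, 0.02 without normal Nes-GFP low replicate 5, and 0.07 without the 5 libraries of high myeloid marker level. Cytosolic ribosomal protein genes lay on the other side of 0, with a median of 0.39 and 75 of 80 genes above 0, of which edgeR and DESeq2 called 0. That direction too depended on AML Nes-GFP low replicate 4, without which the median was -0.11 with 25 of 80 above 0.

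AML and normal were then set against each other between the populations, as the AML effect in Nes-GFP high minus that in Nes-GFP low BMSCs. The members' median was 0.27 against 0.14 over all genes tested. In edgeR no gene passed (0%), and at an unadjusted p under 0.05 there were 4 members above 0 (5.26%, against 6.41% of genes) and 3 below (3.95%, against 3.55%). DESeq2 called 2 members above 0 (2.63%, against 3.28%) and 0 below (against 1.79%). The members called were Mrps31, with a difference of 8.06 (SE 1.89, adjusted p = 0.305 in edgeR and 6.75e-05 in DESeq2), and Mrps22, with 4.09 (SE 1.03, adjusted p = 0.309 in edgeR and 7.01e-05 in DESeq2). Both were higher in AML in the high population, and in the low population their log2 fold changes were -1.02 (SE 0.86) and -1.22 (SE 0.55).

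Nes-GFP high and low BMSCs were compared within normal and within AML mice to see whether the members follow the level of the reporter. In normal mice, 34 of 76 members were higher and 42 lower in Nes-GFP high BMSCs, and the median log2 fold change was -0.10, against -0.27 over all genes tested. It was -0.38 without normal Nes-GFP high replicate 1 and 0.08 without normal Nes-GFP low replicate 5. No gene passed in edgeR (0%). At an unadjusted p under 0.05, 1 member was higher (1.32%, against 2.1% of genes) and 5 were lower (6.58%, against 9.14%). DESeq2 called 1 member higher (1.32%, against 0.621%) and 4 lower (5.26%, against 10.4%). Non-overlapping groups gave 3 members higher (3.95%, against 3.48%) and 8 lower (10.5%, against 7.85%).

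This comparison shares its normal Nes-GFP high libraries with that of AML and normal mice, and the genes low in those libraries recur. Mrps31, at 0 and 0.425 CPM in normal Nes-GFP high, was at 2.22 to 37.8 CPM (median 22.9) in normal Nes-GFP low libraries, with a log2 fold change of -6.68 (SE 1.63, adjusted p = 0.235 in edgeR and 7.41e-06 in DESeq2). Its rate in the Nes-GFP high libraries was 0.00874 of that in the low ones, with an exact 95% counting interval of 0.00180 to 0.0256. Mrps22 had a log2 fold change of -2.70 (SE 0.79, adjusted p = 0.280 in edgeR and 0.000123 in DESeq2). For both genes the Nes-GFP high libraries lay below all 6 low ones.

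Mrpl46, a large subunit gene found only in mitochondria (chr7:78775236-78783531, minus strand), was at 0 and 1.13 CPM in normal Nes-GFP high and at 7.49 to 44.7 CPM (median 28.6) in normal Nes-GFP low libraries, with a log2 fold change of -5.53 (SE 2.28, adjusted p = 0.406 in edgeR and 0.00878 in DESeq2). Mrpl30, a large subunit gene with a bacterial counterpart, was at 33.9 and 40.8 CPM in Nes-GFP high and at 71.0 to 112 CPM (median 96.4) in Nes-GFP low libraries, with a log2 fold change of -1.34 (SE 0.46, adjusted p = 0.342 in edgeR and 0.000949 in DESeq2). The groups did not overlap for either gene. Mrpl30 combined a small difference with close replicates, and Mrpl46 a large difference with very few counts.

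Mrpl17, which has a bacterial counterpart in the large subunit, was the member that DESeq2 called higher in the Nes-GFP high population of normal mice (chr7:105803206-105811099, minus strand). It was at 202 and 296 CPM there and at 46.8 to 174 CPM (median 81.3) in normal Nes-GFP low libraries, again without overlap. Its log2 fold change was 1.34 (SE 0.51, adjusted p = 0.380 in edgeR and 0.0446 in DESeq2).

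In AML mice, 47 of 76 members were higher and 29 lower in Nes-GFP high BMSCs, with a median log2 fold change of 0.16 against -0.10 over all genes tested. Without the 5 libraries of high myeloid marker level, the median of the members was -0.18, with replicate 2 the only AML Nes-GFP high library left. The median was 0.00 without AML Nes-GFP high replicate 1 alone, 0.05 without AML Nes-GFP high replicate 2 and 0.47 without AML Nes-GFP low replicate 4. No member or other gene passed in edgeR (0%). At an unadjusted p under 0.05, 2 members were higher (2.63%, against 2.5% of genes) and 2 lower (2.63%, against 6.48%). DESeq2 called 1 higher (1.32%, against 0.601%) and 1 lower (1.32%, against 6.45%). Non-overlapping groups gave 9 members higher (11.8%, against 6.9%) and 4 lower (5.26%, against 8.84%).

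Mrpl48, a large subunit gene found only in mitochondria, was at 146 and 92.6 CPM in AML Nes-GFP high and at 33.2, 38.4, 41.3 and 51.7 CPM in AML Nes-GFP low libraries. Both high libraries were above all low ones, and the log2 fold change was 1.53 (SE 0.55, adjusted p = 0.522 in edgeR and 0.0253 in DESeq2). Mrps27, at 0.247 and 0.627 CPM in AML Nes-GFP high, was at 2.88, 2.49, 10.98 and 78.3 CPM in AML Nes-GFP low libraries, with a log2 fold change of -5.71 (SE 2.01, adjusted p = 0.516 in edgeR and 0.00427 in DESeq2). The groups did not overlap, but AML Nes-GFP low replicate 4 held most of the counts, and without it the value was -3.59.

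The other members with the smallest p were called by neither tool. Mrpl55 had a log2 fold change of -2.94 (SE 1.24, adjusted p = 0.0521 in DESeq2). This value was -5.85 without AML Nes-GFP high replicate 1 and -2.01 without AML Nes-GFP high replicate 2. Mrpl9 and Mrpl12 had 1.76 (SE 0.79) and -2.37 (SE 1.14), the latter encoding the stalk protein of the large subunit that contacts translation factors. Mrpl12 was at 213 CPM in AML Nes-GFP low replicate 4 and at 27.0 to 39.1 CPM in the other AML Nes-GFP low libraries, and its log2 fold change was -1.14 without replicate 4 and -4.64 without AML Nes-GFP high replicate 1.

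Members with and without a bacterial counterpart were described separately. Their median log2 fold changes in AML against normal Nes-GFP high BMSCs were 0.29 (47 genes) and 0.03 (28 genes), and in Nes-GFP low BMSCs both were -0.14. The mitochondria-specific members spanned a wider range, from -5.63 to 7.03 in the high population, than those with a bacterial counterpart, from -2.47 to 2.80. The ends of the wider range, Mrps31 and Mrps27, rest on libraries with 0 to 11 counts. DESeq2 called 5 of 28 mitochondria-specific members there (17.9%, namely Mrps31, Mrps22, Mrpl41, Mrpl55 and Mrps27) and 2 of 47 with a bacterial counterpart (4.26%), against 10.5% of all genes with an adjusted p, and the difference between the classes was not tested.

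The genes around the ribosome were looked at by the same measure. Ribosomal proteins with other symbols were represented by 6 of the 7 listed genes, among them Dap3, a GTP-binding small subunit protein, and Ptcd3. In AML against normal Nes-GFP high BMSCs their median log2 fold change was 0.32, and neither edgeR nor DESeq2 called any of them. Ptcd3 was called by DESeq2 in normal mice, with a log2 fold change of -5.22 (SE 1.95, adjusted p = 0.369 in edgeR and 0.00317 in DESeq2) for Nes-GFP high against low BMSCs. Its level was 1.13 and 1.84 CPM in Nes-GFP high libraries of normal mice, against 3.13 to 84.2 CPM in normal Nes-GFP low libraries.

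Assembly and rRNA modification factors, of which 25 of 31 listed genes were in the table, build the 2 subunits and modify their RNAs. Their summed level was 370 to 989 CPM, and 24 of the 25 had an adjusted p in DESeq2. In AML against normal Nes-GFP high BMSCs the median was -0.26, none passed in edgeR, and DESeq2 called 5 higher (20.8% of 24, against 6.24% of all genes) and 1 lower (4.17%, against 4.27%). Those higher were Malsu1, Trub2, Mtg1, Rpusd4 and Ybey, and the lower one was Eral1. Mtg1 (0.618 and 44.2 CPM in AML, 0 and 0.850 CPM in normal libraries), Rpusd4 (0.247 and 69.2 CPM against 1.39 and 0.425 CPM) and Ybey (0.989 and 51.6 CPM against 1.51 and 1.13 CPM) were high in AML Nes-GFP high replicate 2 alone, and their groups overlapped. Trub2 was at 35.5 and 45.1 CPM in AML and at 0 and 0.425 CPM in normal libraries. Malsu1, an assembly factor of the large subunit, was at 83.8 and 37.7 CPM in AML and at 4.91 and 8.35 CPM in normal Nes-GFP high libraries, without overlap, with a log2 fold change of 3.19 (SE 0.84, adjusted p = 0.224 in edgeR and 3.44e-05 in DESeq2). Eral1, which binds the 12S ribosomal RNA, was at 0.494 and 0.209 CPM in AML and at 7.05 and 2.12 CPM in normal Nes-GFP high libraries.

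In normal mice the same factors had a median of -1.50 for Nes-GFP high against low BMSCs, with 20 of 25 below 0 and 7 called lower by DESeq2 (29.2% of 24, against 10.4% of all genes), where all genes tested had a median of -0.27. The 7 called lower were Trub2, Fastkd2, Mtg1, Malsu1, Rpusd4, Mrm2 and Gtpbp10. Of these, Trub2, Mtg1, Malsu1 and Rpusd4 were also called above, against the same normal Nes-GFP high libraries. In those libraries Trub2, Fastkd2, Mtg1, Mrm2 and Gtpbp10 were at 0 CPM in replicate 1 and at 0.142 to 1.56 CPM in replicate 2. In AML mice the median of the factors was -0.53, with 1 called higher (4.17%, against 0.601% of all genes) and 4 called lower (16.7%, against 6.45%). Between AML and normal Nes-GFP low BMSCs the median was -0.09 and DESeq2 called none.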

How the data were processed

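RNA of 14 libraries was analysed, in 4 groups taken from the labels. The authors deposited raw read counts per gene, made with Trim Galore 0.4.1, TopHat2 2.1.0 (mm10) and featureCounts, and used DESeq2 1.14.1. How reads with several alignments and strand were treated is not given in the sources used here. Another 2 library columns of the table were not used here. Members, gene lists and tests were chosen with earlier results of these data known.

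Counts as deposited were tested in edgeR 4.0.16 (R 4.3.3) with TMM scaling, filterByExpr at a minimum count of 10, 1 quasi-likelihood fit of the 4 groups and Benjamini-Hochberg adjustment over all 18152 genes tested at a two-sided threshold of 0.05. DESeq2 1.42.0, limma 3.58.1 (voom with quality weights), other scalings and filters, and leaving out libraries were alternatives. The fit was tried on simulated data with changes set in AML Nes-GFP low libraries only. Comparisons that include Nes-GFP high libraries were not covered by it. Each SE given is the edgeR log2 fold change, without its sign, divided by the square root of the quasi-likelihood F statistic. It was derived from the test and not estimated by the fit, and has little meaning where a group held almost no counts. CPM values are TMM-scaled, and figures were drawn with matplotlib 3.10.9. Counting intervals are exact for independent reads and cover no variation between libraries. Amplified reads are not independent molecules, so the intervals can be too narrow even for counting error.

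Members were named by rule: the 3 highest per kilobase in each subunit, the 5 smallest edgeR p-values in each comparison of 2 groups, every member DESeq2 called, the Mrps18 paralogs, Mrps30 and Mrps36, and the 3 with most libraries lacking a count. Genes of the pathway lists were chosen for naming after their values were seen. No 2 libraries of the same group were copies of each other, and pairs across groups were not checked. GENCODE M21 gave positions on GRCm38. Leaving out the libraries with more myeloid than stromal marker level was added after seeing the data.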

Additional observations from a re-analysis of the deposited data

Results flagged for a closer look

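The groups of values examined share libraries, and many of their genes were named for their values here, so no chance rate is given. Among 66 groups of 4 to 6 values, 7 had a highest library far from the others. In AML Nes-GFP low replicate 4 these were Mrpl12 at 213 CPM, Mrpl52 at 139 CPM, Mrpl54 at 190 CPM, Mrps18b at 82.0 CPM, Mrps27 at 78.3 CPM and Mrps36 at 98.3 CPM. This library has the lowest total count, 5615941, and the highest summed level of the members. In AML Nes-GFP low replicate 2 it was Mrpl53 at 0.998 CPM, which rests on 10 counts where the other AML Nes-GFP low libraries had 0.

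The difference in the AML effect between Nes-GFP high and low BMSCs passed the test in DESeq2 for Mrps31, at a log2 difference of 8.08, and for Mrps22, at 3.99. The adjusted p in edgeR was 0.305 for Mrps31 and 0.309 for Mrps22. Both genes were higher in 2 of 2 AML Nes-GFP high libraries than in either normal one.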

How the results depend on the processing

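The number of members called was 0 in edgeR in each of the 5 comparisons and became 7 (AML against normal, Nes-GFP high), 5 (Nes-GFP high against low, normal), 2 (Nes-GFP high against low, AML) and 2 (difference of the AML effect) in DESeq2. It was 0 under each other alternative run, leaving out single libraries included (0 to 0). The cause was not tested. Each of the 528 values of the named members under an alternative had the same direction, and 14 passed the threshold, all in DESeq2. The shared direction is no independent support, because these members were named for their p-values or calls in the same data. Many of the fits left out a library of a group outside the comparison, which leaves the compared libraries unchanged. Some others left a group without any count of the gene.

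Leaving out single libraries gave a median log2 fold change of the members of -0.02 (without normal Nes-GFP high replicate 2) to 0.55 (without normal Nes-GFP high replicate 1) for AML against normal in Nes-GFP high, and of -0.44 (without AML Nes-GFP low replicate 4) to 0.05 (without AML Nes-GFP low replicate 2) in Nes-GFP low BMSCs. For Nes-GFP high against low it was -0.38 (without normal Nes-GFP high replicate 1) to 0.08 (without normal Nes-GFP low replicate 5) in normal mice and 0.00 (without AML Nes-GFP high replicate 1) to 0.47 (without AML Nes-GFP low replicate 4) in AML mice, and for the difference 0.09 to 0.59. The sign of the first 3 medians thus depended on single libraries.

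Whether replicate numbers pair the libraries could not be decided. Correlations of deviations between libraries with the same number ran from -0.16 to 0.372, but in groups of 2 the deviations mirror each other. With a replicate block the medians were 0.20, 0.08, 0.20, 0.31 and 0.12 in the order given above, with 0 members called. Without the 5 libraries of high myeloid marker level they were 0.20, 0.07, -0.23, -0.18 and 0.07, with replicate 2 the only AML Nes-GFP high library left. Without TMM scaling the mean summed level was 3572 CPM in Nes-GFP high BMSCs of AML mice and 3505 CPM in those of normal mice. Each Nes-GFP high group had 2 libraries, and Mrps31, Mrps27, Mrpl46 and Mrpl55 rested on few counts in some of them.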
